A study of Homo sapiens with 4 samples.

Results

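The EGFR family of receptors and their ligands was followed across 4 samples of HCCLM3, a human hepatocellular carcinoma line with high metastatic potential. Members were chosen by gene symbol: the receptors EGFR, ERBB2 and ERBB3 and the ligands TGFA, HBEGF, EREG and AREG. In all, 26 of the 54613 non-control probe sets of the Affymetrix Human U133 Plus 2.0 array carried 1 of these symbols alone. They covered 6 of the 7 genes: 9 probe sets for EGFR, 3 for ERBB2, 5 for ERBB3, 3 for TGFA, 4 for HBEGF and 2 for EREG. No probe set carried the symbol AREG in the platform annotation used, so AREG, the ligand amphiregulin, is not analysed here. The cells had been sorted magnetically for EpCAM, an epithelial adhesion molecule, and then treated for 4 days. In the EpCAM-negative groups, cells were transfected with 100 nM miR-429 mimic or negative-control (NC) mimic using the reagent INTERFERin. In the EpCAM-positive groups, 40 µM antagomir-429, a cholesterol-conjugated antisense RNA against miR-429, or NC antagomir was put straight into medium without serum, and serum was added back some hours later. All 4 groups came from 1 line grown in serum-containing medium, each group had 1 array, and the sources used here do not give the purity of the sort.

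EGFR, ERBB2 and ERBB3 are receptor tyrosine kinases of the cell surface. A ligand such as TGF-alpha (TGFA), heparin-binding EGF-like growth factor (HBEGF) or epiregulin (EREG) is made as a membrane-anchored precursor, is released by surface proteases and binds EGFR, which then pairs with itself or another family member. ERBB2 has no known soluble ligand of its own and acts as a partner. ERBB3 binds neuregulins, has little kinase activity and couples strongly to PI3 kinase. The receptors signal through RAS and ERK and through PI3 kinase and AKT, and ERK activity induces early response genes and feedback inhibitors. In hepatocytes EGFR serves liver regeneration, and its ligands are often raised in liver cancer.

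The sequence supplied by the mimic and bound by the antagomir is shown with its relatives because the seed, bases 2 to 8 in capitals, decides which mRNAs a microRNA can pair with. The mature sequences are RefSeq's on build GRCh38.p14, where miR-429 lies at chr1:1169055-1169076 on the plus strand.
hsa-miR-429: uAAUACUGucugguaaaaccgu
hsa-miR-200b-3p: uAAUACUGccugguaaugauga
hsa-miR-200c-3p: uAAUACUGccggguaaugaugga
hsa-miR-200a-3p: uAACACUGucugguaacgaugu
hsa-miR-141-3p: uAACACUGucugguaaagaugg
miR-429, miR-200b and miR-200c share the seed AAUACUG, and miR-200a and miR-141 share AACACUG. PLCG1 and ERRFI1, which act next to EGFR, are reported targets of this family. No transcript sequences were used here, so seed matches in the members' mRNAs were not looked for.

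The values were MAS5 signals that the authors had scaled to a trimmed mean of 500.1 on each array. A probe set passed the filter when its mean log2 signal over the 4 arrays was at or above 5.73, a signal of 52.9 and the median of all probe sets, which is called the floor. Each gene was represented by its brightest probe set. Differences are log2 ratios between 2 single arrays, with no replicate check and no test. As a yardstick, each is set beside the scatter, the robust SD of the log2 ratio over the 500 probe sets nearest in signal. Where 1 array of a pair lies under the floor, the fold is taken against the floor and given as a lower bound. The share of probe sets that reached the floor ran from 54.2% to 55.9% over the arrays. The ratio of the 3′ to the 5′ actin probe set, a sign of RNA length, was 2.63 for the miR-429 mimic and 3.07 to 3.41 elsewhere. The keratins KRT8 and KRT18 were bright on every array, with signals of at least 28365 and 42723, though both mark simple epithelium in general. Of the named hepatoma and liver markers 4 of 8 passed the floor, with AFP at 91 to 119, while ALB was under the floor on all arrays. Of the leukocyte markers 2 of 4 passed the floor, with summed signals of 264 and 208 in the mimic pair and 153 and 215 in the antagomir pair, the group given miR-429 mimic or antagomir-429 first. Of the fibroblast and endothelial markers 5 of 6 passed, with summed signals of 8082 and 7640 in the mimic pair and 8093 and 10944 in the antagomir pair, most of it from the collagen COL1A1. The part of these genes in the results was not tested. EPCAM, the sort marker, had signals of 3838 on the miR-429 mimic array against 1106 for the NC mimic, and 913 on the antagomir-429 array against 1235 for the NC antagomir, so its mRNA did not separate the sorts.

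The first comparison asked which mRNAs differ when miR-429 is supplied to EpCAM-negative cells, in a study set up to find its targets. EGFR, ERBB3 and TGFA were higher with the mimic than with the NC mimic, ERBB2 was lower, and HBEGF differed by less than its scatter by its brightest probe set. TGFA was the only member gene at or past 2-fold, 1 of the 5 members whose brightest probe set passed the floor. Among all 13180 genes that passed, 5.25% were at least 2-fold higher and 3.76% lower, so with 5 genes this count is not a result about the family. With the median over a gene's probe sets that passed, EGFR (1.01) reached 2-fold in its place and TGFA (0.99) did not. By probe set, 7 of 19 that passed were at least 2-fold higher and 1 was lower, against 6.83% and 4.43% of all probe sets that passed. The 19 share 5 genes, 4 of the 7 belong to EGFR, and they are not independent.

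EGFR was measured by 8 probe sets above the floor. The brightest, 201984_s_at, had signals of 1285 on the miR-429 mimic array against 707 for the NC mimic, and 922 on the antagomir-429 array against 1026 for the NC antagomir. The miR-429 mimic array was therefore the highest and the NC mimic array the lowest, with both EpCAM-positive arrays in between. The log2 ratio of the mimic pair was 0.86, or 1.82-fold, with a scatter of 0.42. The next brightest, 201983_s_at, had signals of 695 and 278 in the mimic pair (1.32, scatter 0.50), and 224999_at had 668 and 300 (1.16, scatter 0.45). All 3 bright probe sets thus lay beyond their scatter in the same direction.

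The dimmer EGFR probe sets did not all follow. With the miR-429 mimic against the NC mimic, 210984_x_at had signals of 245 and 94 (1.39), 211551_at had 209 and 163 (0.36) and 211607_x_at had 132 and 142 (-0.10). The dimmest pair above the floor pointed opposite ways, 1565483_at at least 2.38-fold higher and 1565484_x_at at least 1.71-fold lower, each with 1 array of the pair under the floor. The median over the 8 probe sets was 1.01. Probe sets ending in _x_at can cross-hybridise with other transcripts, and 211550_at stayed under the floor on all arrays.

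ERBB2 was the member that set the miR-429 mimic array apart from the rest. Its bright probe set 216836_s_at had signals of 734 on the miR-429 mimic array against 1307 for the NC mimic, and 1303 on the antagomir-429 array against 1361 for the NC antagomir. The log2 ratio of the mimic pair was -0.83, with a scatter of 0.46, and the other 3 arrays lay within 0.06 of each other. The other ERBB2 probe sets were close to the floor: 210930_s_at had 66 and 73 (-0.13), and 234354_x_at was at least 1.56-fold higher, its NC mimic signal being under the floor. The median over the 3 probe sets was -0.13, so the lower value rests on the 1 bright probe set.

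ERBB3 had the NC mimic array as its low point. Its brightest probe set, 226213_at, had signals of 1550 on the miR-429 mimic array against 905 for the NC mimic, and 1393 on the antagomir-429 array against 1627 for the NC antagomir. The log2 ratio of the mimic pair was 0.78 with a scatter of 0.46. The second, 202454_s_at, had 758 and 600 (0.34, scatter 0.48), and the 4 probe sets above the floor were all above 0, with 0.28 as the lowest and 0.83 as the highest. The miR-429 mimic array was not above the EpCAM-positive arrays in ERBB3: against the NC antagomir array its log2 ratio was -0.07.

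**Figure D1:**
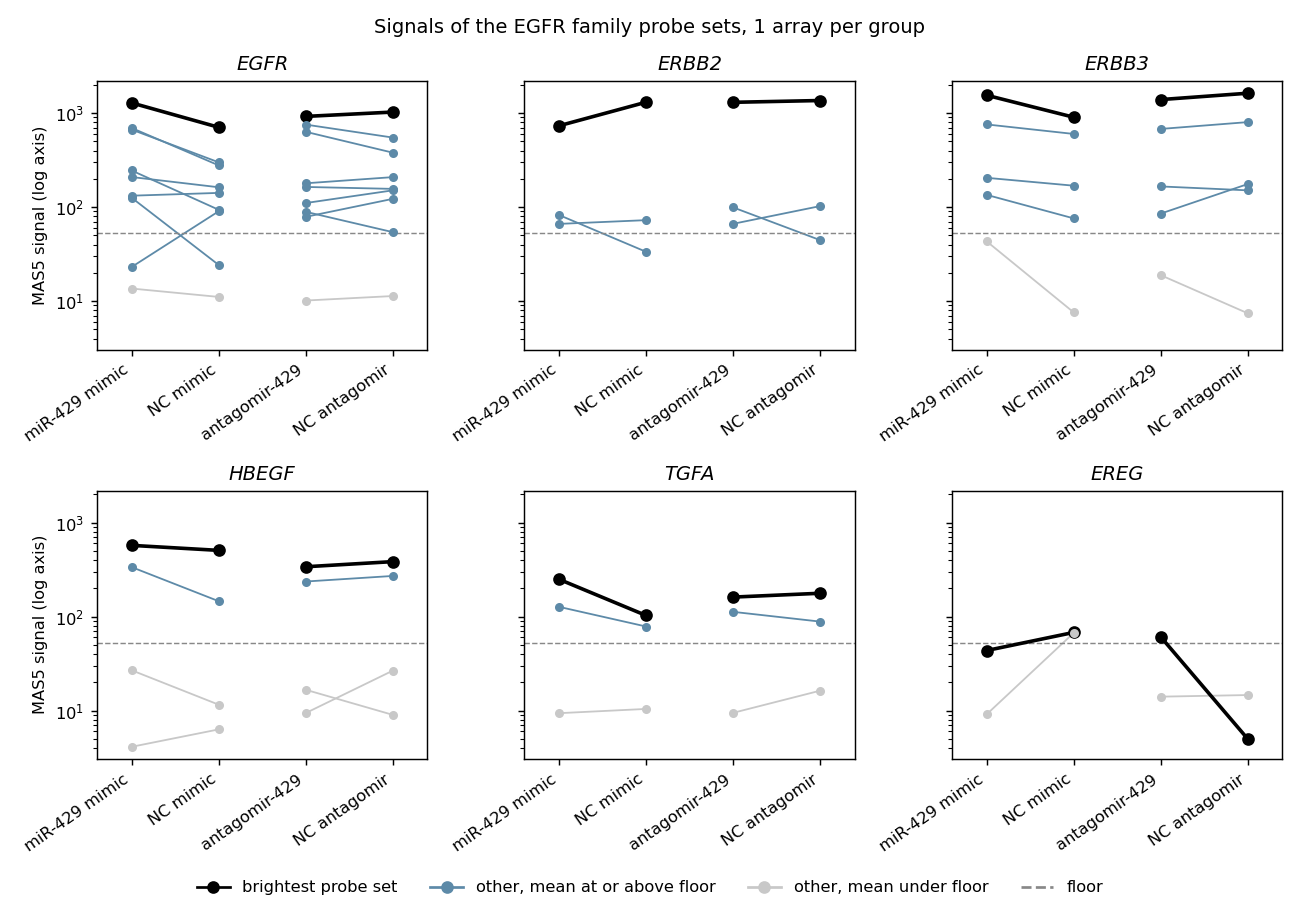
MAS5 signal (log axis) of each probe set of the 6 measured members on the 4 arrays, 1 array per group, with lines joining the arrays of a pair and the dashed line at the floor of 52.9. The brightest EGFR, ERBB3 and TGFA probe sets (black) have their lowest point on the NC mimic array. That of ERBB2 has its lowest on the miR-429 mimic array, and most EREG points lie under the floor.

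Among the ligands, TGFA was the highest above its control. Its brightest probe set, 205016_at, had signals of 249 on the miR-429 mimic array against 103 for the NC mimic, and 161 on the antagomir-429 array against 177 for the NC antagomir. The log2 ratio of the mimic pair was 1.28, or 2.42-fold, with a scatter of 0.54. The second probe set, 211258_s_at, had 127 and 78 (0.69, scatter 0.73), and 205015_s_at was under the floor on all arrays. As with EGFR, the NC mimic array was the lowest and the miR-429 mimic array the highest of the 4.

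HBEGF gave different answers by probe set. The brightest, 203821_at, had signals of 573 on the miR-429 mimic array against 507 for the NC mimic, and 339 on the antagomir-429 array against 384 for the NC antagomir, which put both EpCAM-negative arrays above both EpCAM-positive arrays. The second, 38037_at, had 336 and 146 in the mimic pair and 236 and 271 in the antagomir pair, with the NC mimic array lowest. Their log2 ratios in the mimic pair were 0.18 (scatter 0.42) and 1.20 (scatter 0.59). The remaining pair of HBEGF probe sets was under the floor on all arrays.

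EREG did not pass the filter. Its brighter probe set, 205767_at, had signals of 44 on the miR-429 mimic array against 68 for the NC mimic, and 61 on the antagomir-429 array against 5 for the NC antagomir. The other, 1569583_at, had 9 and 67 in the mimic pair and 14 and 15 in the antagomir pair. Against the floor EREG was at least 1.28-fold lower in the mimic pair and at least 1.15-fold higher in the antagomir pair by the brighter probe set. At these signals an order of the arrays cannot be read.

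The promoters of EGFR and TGFA are shown because their brightest probe sets lay in the same order on the 4 arrays. That order does not hold for the next brightest EGFR probe sets, both of which read higher with antagomir-429 than with the NC antagomir, and every step of it lay within the scatter for EGFR. Each window runs from 250 bases before to 50 after a RefSeq transcription start on GRCh38.p14, with the GC box GGGCGG or its complement CCGCCC in capitals. EGFR lies at chr7:55018767-55019066 on the plus strand and TGFA at chr2:70553777-70554076 on the minus strand.
EGFR: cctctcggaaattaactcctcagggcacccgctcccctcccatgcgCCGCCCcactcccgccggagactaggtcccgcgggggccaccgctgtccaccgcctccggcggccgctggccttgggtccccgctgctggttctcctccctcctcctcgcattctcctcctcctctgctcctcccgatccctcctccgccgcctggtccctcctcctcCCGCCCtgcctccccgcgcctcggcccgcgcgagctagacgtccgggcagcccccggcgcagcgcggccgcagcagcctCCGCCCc
TGFA: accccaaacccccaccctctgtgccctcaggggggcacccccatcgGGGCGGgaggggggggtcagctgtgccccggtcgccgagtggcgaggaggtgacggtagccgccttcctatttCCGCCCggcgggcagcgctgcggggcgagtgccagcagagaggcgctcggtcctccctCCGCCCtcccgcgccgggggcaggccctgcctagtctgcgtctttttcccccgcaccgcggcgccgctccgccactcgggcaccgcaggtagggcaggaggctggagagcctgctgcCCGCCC
Both windows were 75.3% G and C, against a median of 58.7% over all 35116 windows. EGFR held 3 GC boxes and TGFA 4, and a GC box was found in 45.0% of all windows on either strand. Neither window held the E-box CACCTG or CAGGTG, which the ZEB repressors bind and which 20.6% of all windows held, nor the AP-1 motif TGANTCA (7.71%) nor the TATA box TATAAA or TTTATA (11.5%). HBEGF held 5 GC boxes and 1 E-box, EREG 1 E-box and 1 TATA box, and ERBB2 no GC box and 1 AP-1 motif. A second listed start of EGFR, farther along the gene, held 2 AP-1 motifs, 2 TATA boxes and no GC box, and that of TGFA held 1 E-box. The arrays do not tell which start was used.

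The second comparison asked whether blocking miR-429 in EpCAM-positive cells moves the same genes. No member past the filter reached 2-fold by its brightest probe set with antagomir-429, against 3.72% of all genes higher and 3.53% lower. EGFR had a log2 ratio of -0.15 (scatter 0.26), ERBB2 -0.06 (scatter 0.26), ERBB3 -0.22 (scatter 0.23), HBEGF -0.18 (scatter 0.33) and TGFA -0.14 (scatter 0.50). Each was below 0 and within its scatter.

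The bright EGFR probe sets disagreed here. Where the brightest gave -0.15, 201983_s_at had signals of 755 on the antagomir-429 array and 550 on the NC antagomir array (0.46, scatter 0.31), and 224999_at had 633 and 380 (0.74, scatter 0.33). The direction of EGFR with antagomir-429 therefore depended on the probe set, and 4 of its 8 were above 0. Of the 19 probe sets that passed, 1 was at least 2-fold higher and 1 lower, against 4.68% and 4.63% of all probe sets. These were the dim ERBB2 probe set 234354_x_at (signals 99 and 45, at least 1.88-fold) and the ERBB3 probe set 1563253_s_at (85 and 176, a log2 ratio of -1.04).

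The third comparison set the EpCAM-positive NC antagomir array beside the EpCAM-negative NC mimic array. Sort, agent and delivery differ together between them and cannot be told apart. It shares a control array with each of the first comparisons, and the values are tied to theirs. Member signals are those given above: the log2 ratio of the NC antagomir over the NC mimic was 0.54 for EGFR (scatter 0.35), 0.06 for ERBB2 (scatter 0.33), 0.85 for ERBB3 (scatter 0.31), 0.79 for TGFA (scatter 0.59) and -0.40 for HBEGF (scatter 0.35). None reached 2-fold, against 3.62% of all genes higher and 4.70% lower. By probe set 1 of 19 was at least 2-fold higher and 0 were lower, against 5.08% and 5.69% of all. By their brightest probe sets EGFR, ERBB3 and TGFA were thus above the NC mimic array in the EpCAM-positive control as well as with the miR-429 mimic. ERBB2 was lower with the mimic, and between the controls its 3 probe sets were all above 0 but within their scatter. Over all members 18 of the 19 probe sets that passed were above 0 between the controls. Of all genes, by their brightest probe sets, 47.8% were.

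**Figure D2:**
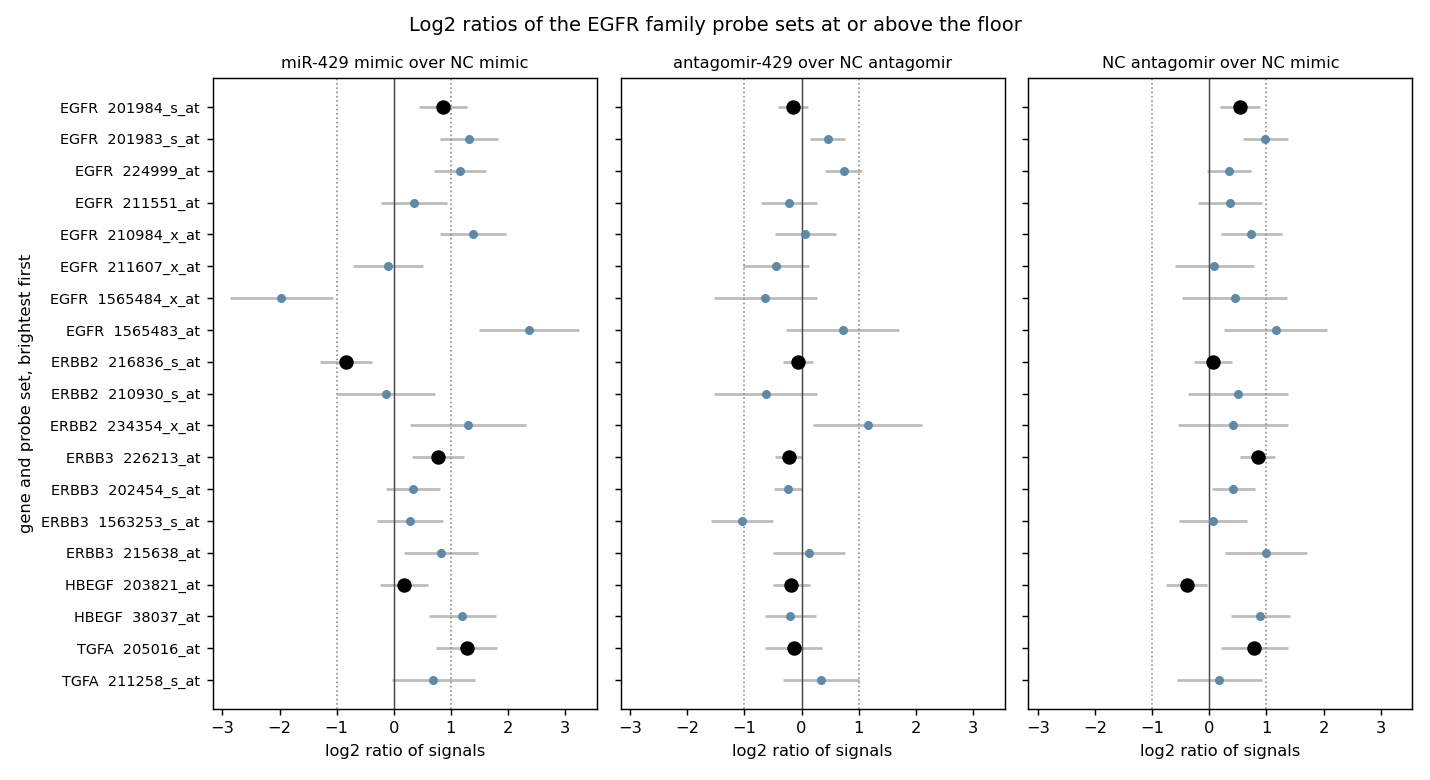
Log2 ratio of signals for the 19 member probe sets that passed the floor (rows, brightest of each gene first and in black) in the 3 comparisons (panels). Grey bars are the scatter, the robust SD of the log2 ratio over the 500 probe sets nearest in signal, not a replicate error, and dotted lines mark 2-fold. In the left panel the 3 bright EGFR probe sets and TGFA lie right of 0 and the bright ERBB2 probe set left of 0, while in the middle panel the brightest probe sets lie near 0.

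Set in order of signal on the 4 arrays, neighbours in the order mostly differed by less than their scatter. For EGFR no neighbouring arrays differed by more, from the miR-429 mimic (1285) through the NC antagomir (1026) and antagomir-429 (922) to the NC mimic (707). For ERBB2 the miR-429 mimic array lay 0.83 log2 units below the next, antagomir-429, with a scatter of 0.35. For ERBB3 the NC mimic array lay 0.62 below the next (scatter 0.39), and for TGFA 0.65 below (scatter 0.62). For HBEGF the step lay between the NC mimic and the NC antagomir. With the miR-429 mimic set against the NC antagomir in place of the NC mimic, where 5.36% of all genes were at least 2-fold higher and 3.23% lower, the log2 ratios were 0.33 for EGFR, 0.49 for TGFA, 0.57 for HBEGF, -0.07 for ERBB3 and -0.89 for ERBB2. Of the members, ERBB2 had about the same value against either control, while TGFA no longer reached 2-fold.

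In the mimic pair the log2 ratio also moved with the genomic span of a gene. Over all expressed genes its median was -0.19 in the shortest of 5 equal bins of genes (median span 4.1 kb) and 0.22 in the longest (147.5 kb). EGFR (192.6 kb) and TGFA (106.5 kb) belong to the longest bin, ERBB2 (40.6 kb) to the next longest with a median of 0.11, ERBB3 (23.4 kb) to the middle one with -0.02 and HBEGF (13.8 kb) to the second shortest with -0.12. With the median of its bin taken off, EGFR had 0.64, TGFA 1.06, ERBB3 0.79, HBEGF 0.30 and ERBB2 -0.94. The members kept their directions, and the part of span in the rest was not tested. Between the controls the medians of the shortest and longest bins were -0.10 and 0.06.

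TGFA was the only member with all 4 arrays above the floor and a range past 2-fold, so genes of like pattern were sought for it alone. The likeness was the root mean square difference of the log2 signals over the 4 arrays, each gene centred on its mean, among 11496 genes above the floor on all arrays. The nearest were BTRC (0.036), a ubiquitin ligase subunit, DOCK5 (0.037), a RAC exchange factor, and C2CD2 (0.041). DOCK5, for example, had signals of 278 on the miR-429 mimic array against 116 for the NC mimic, and 191 on the antagomir-429 array against 197 for the NC antagomir. This is a likeness over 4 single arrays and a description only.

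The rest of the pathway was described by 8 gene lists, chosen with earlier results of these data known. Of the other receptors and ligands, 7 of 8 were named and 3 passed the floor. NRG1, a neuregulin that binds ERBB3, was at least 2.06-fold higher with the miR-429 mimic, but its second probe set gave -0.54. Its brightest probe set had signals of 109 and, under the floor, 43. NRG4, an ERBB4 ligand, was at least 1.37-fold lower, with signals of 26, under the floor, and 72. NRG2 had a log2 ratio of 0.72, and ERBB4, EGF and BTC did not pass the floor. With antagomir-429 none of the 3 reached 2-fold by the brightest probe set, where NRG1 had -0.25, but its second probe set gave 4.33, with the NC antagomir array far under the floor. NRG4 was at least 1.78-fold higher, from a control under the floor, and NRG2 had 0.28. NRG1 was at least 3.04-fold higher in the NC antagomir than in the NC mimic array, but its second probe set gave -4.93, with that same array under the floor.

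Of the machinery of ligand release all 14 genes passed the floor and, by the brightest probe set, 0 were past 2-fold in any of the 3 comparisons. Other probe sets of ADAM9, ADAM12, ADAM17, FRMD8 and CNIH4 did pass 2-fold, those of ADAM9 running from -1.41 to 2.11 with antagomir-429. With 5.25% of all genes higher and 3.76% lower in the mimic pair, and like shares in the others, a count of 0 of 14 is near the background. ADAM17, the main sheddase of TGF-alpha, HB-EGF and epiregulin precursors, had signals of 773 on the miR-429 mimic array and 448 on the NC mimic array, a log2 ratio of 0.79, and its 3 probe sets lay between 0.41 and 1.02. It had 503 with antagomir-429 against 424 with the NC antagomir (0.25). The largest values of the list were ADAM19 (-0.98) and ADAM8 (-0.92) in the mimic pair, ADAM12 (0.65) and the peptidase NRDC (0.63) in the antagomir pair, and ADAM19 (-0.95) and ADAM10 (0.81), the main sheddase of EGF, between the controls. ADAM19 had 1 array of the pair under the floor in both cases and was at least 1.82-fold lower in each. The median was -0.28 in the mimic pair, against -0.002 over all expressed genes, and -0.03 under quantile normalization. It was -0.09 with antagomir-429 and -0.18 between the controls.

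PLCG1 and ERRFI1, the reported targets of the family, were not both lower with the mimic. PLCG1, a phospholipase that binds the activated receptor, had signals of 929 on the miR-429 mimic array and 1002 on the NC mimic array, a log2 ratio of -0.11 with a scatter of 0.46, and its second probe set gave -0.78. ERRFI1, which binds and inhibits the EGFR kinase, had 3009 and 1621, a log2 ratio of 0.89 with a scatter of 0.42. With antagomir-429 PLCG1 had 1150 against 1247 with the NC antagomir (-0.12), and ERRFI1 had 2305 against 1577 (0.55, scatter 0.21). ERRFI1 was thus higher in the treated array of both pairs.

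Of the adaptors and proximal signalling genes, 13 of 16 were named and passed the floor. In the mimic pair the kinase SRC was at least 3.92-fold lower, with signals of 39, under the floor, and 208. No other member reached 2-fold by its brightest probe set, but other probe sets gave 3.89 for PTPN11, -1.88 for GRB2 and 1.18 for SOS1. The list median of 0.14 had no stable sign: it was -0.08 after the span correction and 0.03 under median centring. With antagomir-429 the RAS exchange factor SOS2 was at least 2.03-fold higher, with signals of 107 and, under the floor, 26 (list median 0.06). Between the controls SOS2 was at least 1.29-fold lower in the NC antagomir array and the docking protein GAB1, with signals of 92 and 185, lay at the 2-fold line, while its second probe set gave 0.84 (list median -0.04). SRC was measured by 1 probe set that passed.

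In the kinase cascades downstream 1 of 15 expressed genes was past 2-fold in the mimic pair, near the 5.25% higher and 3.76% lower of all genes. Of the RAS and ERK list 8 of 14 were named and passed, with 0 past 2-fold in any comparison and medians of -0.29, -0.07 and -0.08 in the mimic pair, the antagomir pair and between the controls. The largest there were MAP2K2 (-0.81), the kinase MEK2, and the scaffold KSR1 (0.71) in the mimic pair, MAPK3 (-0.43), the kinase ERK1, and RPS6KA1 (-0.28), an ERK-activated kinase, in the antagomir pair, and KSR1 (0.84) and RPS6KA3 (-0.61) between the controls. Of the PI3 kinase and AKT list 7 of 12 were named and passed. PIK3CB, a catalytic subunit, had signals of 403 on the miR-429 mimic array and 196 on the NC mimic array (1.04), while the list median was -0.33, and -0.09 with the median over probe sets. The largest with antagomir-429 were the regulatory subunits PIK3R1, at least 1.32-fold higher with the NC antagomir under the floor, and PIK3R3 (-0.71), with a median of 0.01. Between the controls PIK3R1 was at least 1.5-fold lower in the NC antagomir array, with a list median of -0.15. A dimmer probe set of AKT2 gave -2.55 there.

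The receptor sorting list, whose genes ubiquitinate EGFR and carry it to lysosomes, had 16 of 18 members above the floor. In the mimic pair 13 of 16 were above 0, against 49.9% of all genes, and 0 reached 2-fold by the brightest probe set. The median was 0.23, but 0.09 after the span correction and 0.12 under median centring. The largest were CBL, the ligase that ubiquitinates activated EGFR (0.92, but 0.09 as the median over its 5 probe sets), and STAM2, a sorting adaptor (0.82). With antagomir-429 the median was -0.04. By the brightest probe set the endocytic adaptor EPN1 was the only member past 2-fold, with signals of 62 and 186 (-1.59). Between the controls, where the NC mimic array is again the denominator, 13 of 16 were above 0 as well, against 47.8% of all genes. The median there was 0.09 and the largest were STAM2 (0.83) and CBL (0.69).

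**Figure D3:**
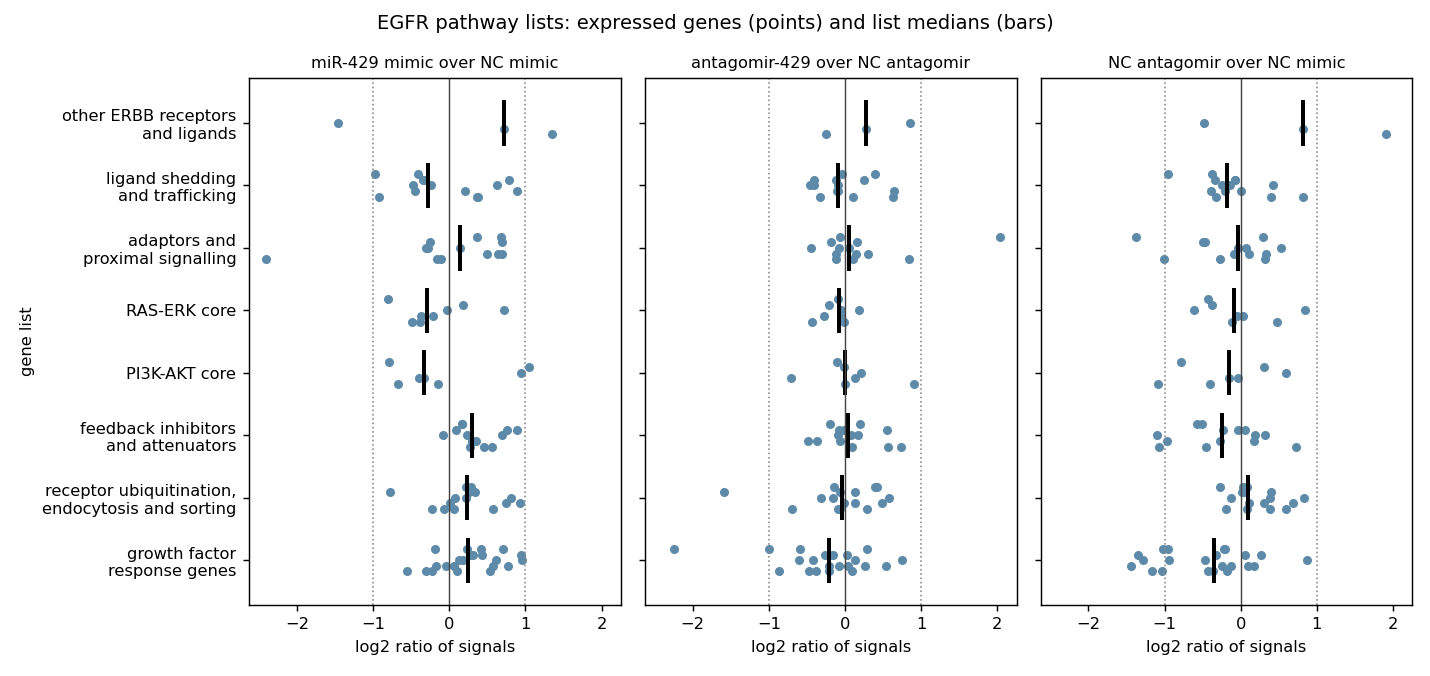
Log2 ratio of signals for the expressed genes of 8 EGFR pathway lists (points, vertical spread for legibility only) in the 3 comparisons, with bars at list medians and dotted lines at 2-fold. In the right panel the growth factor response genes reach furthest below 0, with 6 of 22 at least 2-fold lower in the NC antagomir array.

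Of the feedback inhibitors of EGFR and ERK signalling, 13 of 14 expressed members were above 0 in the mimic pair, against 49.9% of all genes. By the brightest probe set 0 reached 2-fold. The median was 0.30, and 0.19 under median centring. Of these, ERRFI1, SPRY2, SPRED2 and SOCS4 lay beyond their own scatter and the other genes did not. ERRFI1 (0.89) and SOCS4 (0.76), an adaptor that lowers EGFR levels, were the largest. With antagomir-429 the median was 0.04, with the ERK phosphatase DUSP4 (0.74) and SPRED2 (0.56), an inhibitor of RAS signalling, as the largest.

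The list with the most genes past 2-fold was that of growth factor response genes, between the controls of the sorts. By the brightest probe set, 6 of 22 expressed growth factor response genes were at least 2-fold lower in the NC antagomir than in the NC mimic array. None, or 0, were higher, and the median was -0.35, or -0.25 after the span correction. Of all genes 4.70% were lower and 3.62% higher, with a median of -0.02. The list was chosen with earlier results of these data known, so its counts are a description only. FOS, an AP-1 subunit and immediate early gene, had signals of 679 with the NC antagomir and 1727 with the NC mimic (-1.35). The ERK-induced factor ETV4 had 313 and 850 (-1.44), the stress and growth factor gene IER3 had 9931 and 24163 (-1.28), and the AP-1 subunit FOSL1 had 324 and 728 (-1.17). EGR3 (-1.03) and FOSB (-1.02) were the others. Of the feedback inhibitors, 2 of 14 were at least 2-fold lower: the ERK phosphatases DUSP4 (signals 1204 and 2537, -1.07, but -0.05 by another of its 3 probe sets) and DUSP6 (72 and 154, -1.09). DUSP5 had -0.96, and the median of that list was -0.25.

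For most response genes the treated array lay on the same side as the control of its own sort, a comparison added after the values were seen. FOS read 587 and 679 on the EpCAM-positive arrays and 2325 and 1727 on the EpCAM-negative arrays, the treated array before its control. Of the 22 response genes, 16 had both EpCAM-positive arrays below both EpCAM-negative arrays by the brightest probe set and 0 had them above. The shares of all expressed genes were 18.9% and 17.2%. EGR1 (0.50), ATF3 (0.51), JUN (0.21) and PHLDA1 (0.16) each had another probe set with a log2 ratio above 0 between the controls. For IER2, JUN, EGR1, ATF3, PLAUR and IL11 the controls differed by less than the scatter. Of the 14 feedback inhibitors 7 had both EpCAM-positive arrays below, and LRIG2 alone had them above. HBEGF, itself an ERK-induced gene, lay on the same side by its brightest probe set, but 38037_at overlapped between the sorts. EGFR, ERBB2, ERBB3 and TGFA overlapped by their brightest probe sets. The EpCAM-positive arrays are also those whose agent went into medium without serum and with no transfection reagent, so sort and delivery cannot be told apart here.

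**Figure D4:**
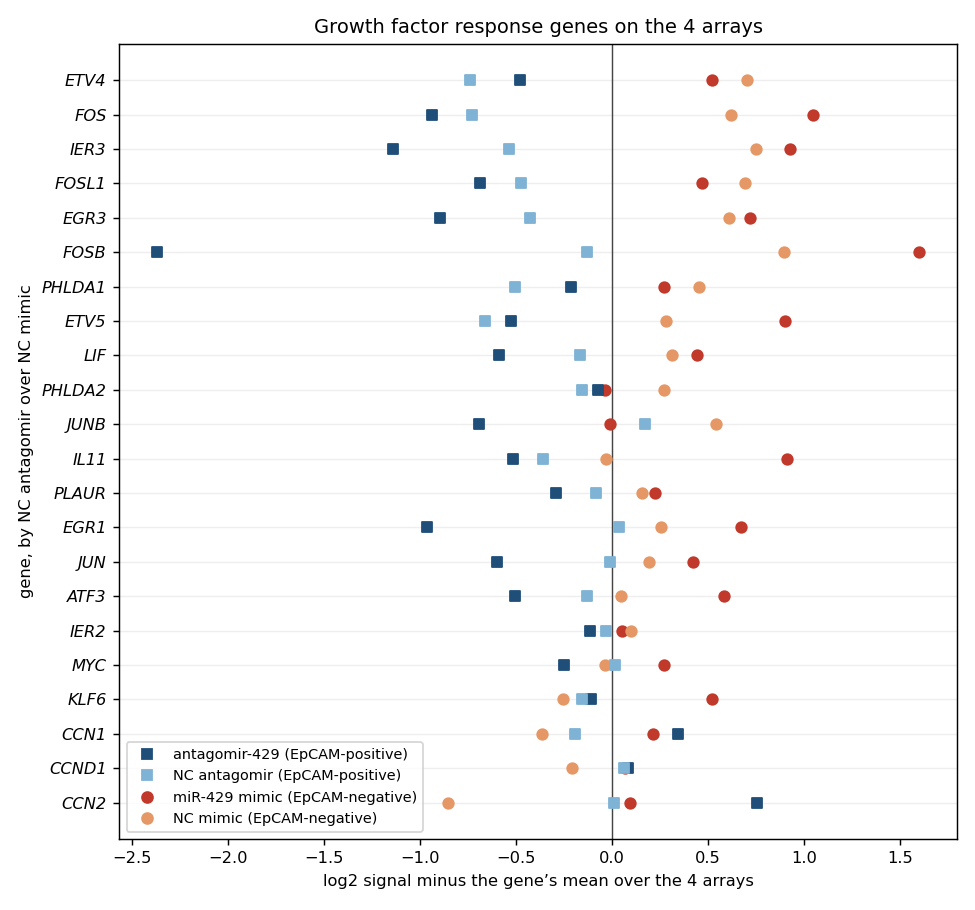
Log2 signal of each of the 22 expressed growth factor response genes, by its brightest probe set, minus the gene's mean over the 4 arrays. The EpCAM-positive arrays are squares and the EpCAM-negative arrays are circles. For 16 of the 22 genes both squares lie left of both circles, while MYC, CCND1, CCN1, CCN2, KLF6 and JUNB overlap.

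Within the pairs fewer response genes were past 2-fold by the brightest probe set. With the miR-429 mimic 16 of 22 were above 0, against 49.9% of all genes, with 0 past 2-fold by the brightest probe set. The median was 0.25, 0.14 under median centring and 0.41 after the span correction, against -0.25 between the controls after that correction. The largest were the secreted CCN2 (0.95) and the cytokine IL11 (0.94, with -1.79 by its second probe set). With antagomir-429 14 of 22 were below 0 and 8 above, where 51.0% of all genes were above 0. The median was -0.21. Counted by log2 ratio, 2 of 22 were at least 2-fold lower, against 3.53% of all genes. There, EGR1, an immediate early factor, had signals of 103 and 207, at the 2-fold line, and all 3 of its probe sets lay at -0.54 or lower. FOSB was at least 1.49-fold lower, its treated array being under the floor.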

How the data were processed

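The deposited values are log2 MAS5 signals. MAS5 is named in the submitters' processing notes, without version, target level or detection calls. The log base and scaling were read from the values: as linear signals, each array had a mean of 500.1 once 2% of probe sets were trimmed from either tail. Of 54675 probe sets, 62 controls were left out. The platform annotation gave 1 symbol for 41091 of the rest, while it named several genes for 1801 and did not list 11777 of all. Entrez identifiers of 41037 matched RefSeq's table of GRCh38.p14, used for names and spans. The brightest probe set per gene gave 19775 genes, 13180 of them at or above the floor. Ratios, medians and scatter (1.4826 times the median absolute deviation) were computed with Python 3.11.15, pandas 2.3.3 and numpy 2.4.6, and the scatter was tested on simulated data. With 1 array per group no test was possible. The number of arrays limits the precision. Members and lists were chosen with earlier results of these data known. All measured members, PLCG1, ERRFI1, EPCAM and, per list, up to 4 genes past 2-fold or else the 2 largest were named, and others (ADAM17, DUSP5, MYC and genes of like standing) after their values were seen.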

Additional observations from a re-analysis of the deposited data

How the results depend on the processing

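No paired analysis was possible because each group has 1 array. The count of members past 2-fold with the miR-429 mimic, 1 as reported, was 0 under the 75th percentile filter (signal 265.6), which leaves TGFA out, and 0 with the NC antagomir array as control. It was 1 under the other 6 alternatives, but with the median over probe sets the gene was EGFR (1.01) and TGFA (0.99) lost its call. With no filter the count was 1 with antagomir-429 and 1 between the controls, in place of 0, because EREG enters at 3.61 and -3.76. With antagomir-429, 4 of the 8 list medians were above 0, and 2 were with the median over probe sets and 2 with no filter. For single members in the mimic pair 34 of 39 values stayed within the scatter and 1 changed sign, ERBB3 with the other control. With the NC antagomir array as control EGFR (0.325), ERBB3 (-0.07) and TGFA (0.49) moved. ERBB2 (-0.13) and HBEGF (0.69) moved with the median over probe sets, so every member that passed the floor moved under some setting. In the antagomir pair 35 of 39 stayed. The 4 that moved were HBEGF (-0.58), which kept its sign, and EGFR (0.38), ERBB3 (0.62) and TGFA (0.65), which changed it, all with the NC mimic array as control. TGFA also changed sign, within its scatter, with the median over probe sets (0.11). Between the controls 32 of 34 stayed, and with the median over probe sets ERBB2 (0.41) and HBEGF (0.25, a changed sign) moved. Median centring moved the median of all genes in the mimic pair to -0.11 and the split past 2-fold to 549 higher and 628 lower, in place of 692 and 496. Relative to that shift, EGFR at 0.75, TGFA at 1.17 and ERBB2 at -0.94 kept their directions. Without a filter 2539 genes were higher and 2248 lower with the mimic, 2226 and 2412 with antagomir-429, and 2264 and 2539 between the controls. Under the stricter filter these were 146 and 36, 24 and 15, and 60 and 60, in place of 692 and 496, 490 and 465, and 477 and 619. Besides these, quantile normalization, adding 13.2 signal units before the log and the span correction were run. Other causes were not tested.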
